A study of Xenopus tropicalis with 7 samples.

Results

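Potassium and sodium channel genes were followed in *X. tropicalis* embryos after knockdown of the T-box factors Xbra and Xbra3. The set holds the 89 genes of 19884 in the count table whose symbol begins with *kcn* and a letter or with *scn* and a number, of which 80 are potassium channel genes and 9 sodium channel genes. Upper- and lower-case symbols were taken alike (79 lower case, 10 in capitals), and 88 of the 89 had at least 10 reads over the stage 32 libraries and were tested. The exception, *kcnk9*, had 1 read. The symbol rule leaves out the epithelial sodium channel (*scnn1*) genes. Wild-type embryos of the Nigerian (Cam4) strain were injected at the 1-cell stage with 20 ng in total of morpholinos that block splicing and translation of *Xbra* and *Xbra3* (Xbra/Xbra3 KD, 3 libraries) or with 20 ng of a control morpholino (control, 3 libraries), and were collected as early tadpoles at stage 32. Uninjected embryos of the same strain were collected at the early tailbud stage 20 (1 library). A library took the RNA of about 2 whole embryos, so that a level sums over all tissues. Fewer cells of a type and less RNA per cell cannot be told apart in such samples. The replicates are labelled as biological, and nothing used here says whether they came from separate clutches.

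Voltage-gated sodium channels carry the fast inward current of the action potential in neurons and muscle fibres, each from 1 pore-forming alpha subunit with small beta subunits beside it. Potassium channels let potassium out and so restore or hold the resting potential. Voltage-gated Kv channels open on depolarization, inward rectifiers (Kir) and two-pore channels (K2P) set the resting potential and move potassium across epithelia, and another group opens with internal calcium or sodium. A morpholino is an antisense oligonucleotide that pairs with a transcript.

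The libraries held 73740300 to 108103730 reads in KD, 79219418 to 120160026 in control embryos and 119004036 at stage 20. *Xbra3* (*t2*) was at 0.614 ± 0.138 CPM (reads scaled to a common library size of 1000000; SD, n = 3) in KD against 22.1 ± 6.73 in control embryos. *Xbra* (*t*) was at 7.53 ± 1.14 against 14.5 ± 4.05. These RNA levels do not show how far translation was blocked. Libraries with the same replicate number deviated together, so results with the replicate number as a block are given beside those of the main fit where they change a call. Sets of markers for neurons, neural progenitors, skeletal muscle, heart, kidney and ionocytes were all detected, and no listed gene found in the table was at 0 in all 6 stage 32 libraries.

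Of the 88 channel genes tested, 10 were higher and 5 were lower in Xbra/Xbra3 KD embryos at a false discovery rate (FDR) below 10% (edgeR's quasi-likelihood test, adjusted over 16944 genes). The genes that rose were the sodium channels *scn1a* and *scn2a* and the potassium channel genes *kcnq1*, *kcnq3*, *kcnc4*, *kcnn1*, *kcnk16*, *KCNJ3*, *kcnab3* and *kcnip3*. Those that fell were *kcna7*, *kcnd1*, *kcnj1*, *kcnk1* and *kcnma1*. The channel genes were called in 17.0% of cases, against 14.4% of all genes tested. Higher calls made up 11.4% against 7.44% of all genes, and lower calls 5.68% against 6.98%. Both shares lie within a few percentage points of the background, and the median log2 fold change was 0.23 for channel genes and 0.01 for all genes. A log2 fold change above 0 was found for 56 of 88 channel genes (63.6%) and for 51% of all genes.

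With the replicate block, 26 channel genes were higher and 13 lower, or 44.3% of those tested, where 38.2% of all genes were called. The 15 genes of the main fit were among these 39. Leaving out both replicate 2 libraries left 4 higher and 4 lower, and scaling by library size only or to 4 reference genes gave 11 or 10 higher but only 2 lower. Leaving out control replicate 3 alone left 3 calls, *scn1a*, *kcnq3* and *kcna7*.

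**Figure D1:**
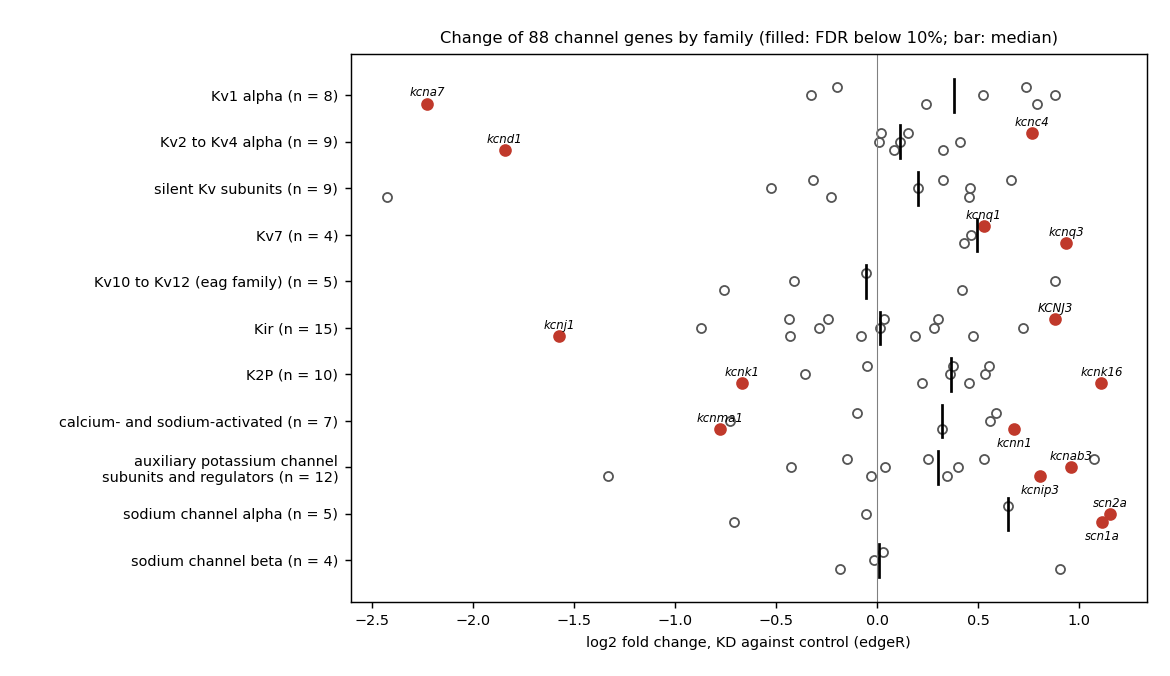
Log2 fold change of each of the 88 tested channel genes in Xbra/Xbra3 KD against control embryos (horizontal axis, edgeR), in rows by family with the number tested. Filled points are the 15 genes with an FDR below 10%, open points the others, and vertical bars are family medians; all 4 *kcnq* (Kv7) genes sit to the right of 0, and *kcna7* at -2.23 is the leftmost called gene.

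The levels of KD and control libraries did not overlap for 27 of the 88 channel genes (30.7%; 30.4% of all genes). In 19 of the 88 (21.6%; 15.9% of all genes) all KD libraries lay above all control libraries, and in 8 (9.09%; 14.6% of all genes) they lay below. The total share was close to that of the whole table, while the share above was larger and the share below smaller.

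Among the 5 sodium channel alpha genes, *scn1a* and *scn2a* rose in the main fit, and *scn3a* and *scn4a* did not pass there but were called with the block. *scn1a* (ENSXETG00000020846), which encodes an alpha subunit of central neurons in mammals, was at 43.0, 43.9 and 38.6 CPM in KD replicates 1, 2 and 3 and at 16.7, 23.3 and 17.9 in control replicates 1, 2 and 3. Every KD library lay above every control library. The means were 41.8 ± 2.84 and 19.3 ± 3.51 CPM (SD, n = 3), 2.17-fold higher in KD embryos (log2 fold change 1.11, SE 0.15, FDR 0.00823 in edgeR). This was the lowest FDR of the set, and it stayed at 0.0512 or below when any of the 6 libraries was left out.

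*scn2a* (ENSXETG00000021004), the alpha subunit of axon initial segments in early mammalian neurons, was at 1.92, 2.67 and 2.00 CPM in KD and at 0.850, 1.18 and 0.897 CPM in control replicates 1 to 3. The groups did not overlap, and the same-numbered pairs differed by nearly the same amount (log2 ratios of 1.16, 1.16 and 1.14). The difference was 2.23-fold (log2 fold change 1.15, SE 0.26, FDR 0.0392), and the FDR reached 0.138 without control replicate 3.

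*scn3a* (ENSXETG00000008965), the alpha subunit of embryonic mammalian neurons, was at 49.7, 84.9 and 71.8 CPM in KD and 37.1, 51.5 and 43.1 CPM in control embryos. KD replicate 1 lay within the control range. Its log2 fold change of 0.65 (SE 0.21) had an FDR of 0.106 in the main fit and of 0.00285 with the block. DESeq2 without a block also called it higher (FDR 0.0440), and 2 of the 6 edgeR fits that left out 1 library did so.

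*scn4a* (ENSXETG00000014235) encodes the alpha subunit of skeletal muscle, which starts the action potential of the muscle fibre. It was at 3.93, 6.48 and 4.28 CPM in KD and at 6.85, 12.01 and 4.97 CPM in control replicates 1 to 3. The groups overlapped, since KD replicate 2 lay above control replicate 3, but each KD library was below the control library of its number (log2 ratios of -0.80, -0.89 and -0.21). The means were 4.90 ± 1.38 and 7.94 ± 3.65 CPM, a log2 fold change of -0.71 (SE 0.35) with an FDR of 0.251, or of 0.0199 with the block.

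None of the 4 beta subunit genes passed the test with or without the block or in DESeq2, and 0 of them had an unadjusted p under 0.05. *scn3b*, which modulates channel gating in neurons, was at 46.5 ± 2.03 CPM in KD and 45.5 ± 3.06 in control embryos, and *scn4b* at 17.5 ± 3.07 and 17.7 ± 2.81. *scn2b* was found at 0.177 ± 0.0927 and 0.0911 ± 0.0676 CPM, where the pairs did not share a direction.

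Of the 8 tested Kv1 alpha genes, only *kcna7* passed, and it showed the largest change of any called channel gene. *kcna7* (ENSXETG00000022916) encodes a delayed rectifier of skeletal muscle and heart in mammals. It was at 0.332, 0.478 and 0.601 CPM in KD and at 1.76, 3.19 and 1.64 CPM in control replicates 1 to 3, or 34 to 66 reads against 126 to 359. All KD libraries lay well below all control libraries, and the difference was 4.69-fold (log2 fold change -2.23, SE 0.39, FDR 0.0160). It held with each of the 6 libraries left out, with an FDR of at most 0.0571.

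The neuronal Kv1 genes differed in sign. *kcna1* and *kcna2*, whose products sit beside the nodes of myelinated axons in mammals, had log2 fold changes of 0.74 and 0.79 (FDR 0.212 and 0.168). Both were called higher with the block (0.0331 and 0.0264), and *kcna2* also in DESeq2 without a block (FDR 0.0949). *kcna4* stood at -0.33 (FDR 0.516, block 0.0613) and *kcna6* at -0.20 (FDR 0.562).

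Among 9 genes of the Kv2 to Kv4 groups, *kcnc4* was higher and *kcnd1* lower. *kcnc4* (ENSXETG00000002027), a fast inactivating Kv3 subunit of muscle and neurons, was at 2.93, 3.70 and 3.54 CPM in KD and 2.17, 1.82 and 1.98 CPM in control embryos. The groups did not overlap, and the fold was 1.70 (log2 fold change 0.77, SE 0.21, FDR 0.0650). Its FDR reached 0.183 without control replicate 3.

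*kcnd1* (ENSXETG00000023771), a Kv4 subunit of the transient A-type current, was at 0.186, 0.390 and 0.146 CPM in KD and 0.492, 1.26 and 0.702 CPM in control embryos. Control replicate 2 was the highest library of all 6 and KD replicate 2 the highest of its group. The fall was 3.59-fold (log2 fold change -1.84, SE 0.52, FDR 0.0746) and rested on 16 to 31 reads in each KD library. The FDR was 0.194 without KD replicate 3 and 0.1002 with scaling by library size only. The other 7 genes of these groups had log2 fold changes of 0.01 to 0.41, and none of them passed.

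The 9 electrically silent Kv subunits (*kcnf*, *kcng*, *kcns* and *kcnv* genes), which form channels only with Kv2 subunits, held no called gene in edgeR's main fit or in DESeq2, and 1 with an unadjusted p under 0.05. That gene, *kcns2*, had the lowest fitted log2 fold change of the whole set (-2.43, FDR 0.124), on 3, 2 and 3 reads in KD and 2, 31 and 13 in control replicates 1 to 3. At these read numbers control replicate 1 could not be told from the KD libraries. With the block *kcnf1* was called higher (log2 fold change 0.48, FDR 0.0261), and *kcns2* (FDR 0.0513) and *kcng3* (-0.53, FDR 0.0715) were called lower.

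Some Kv7 channels, such as those with *kcnq3* and *kcnq5* subunits, carry the M-current, a slow potassium current that restrains repeated firing. All 4 Kv7 genes had a log2 fold change above 0, from 0.43 to 0.94, and 2 of them passed. *kcnq3* (ENSXETG00000023036), a subunit of the neuronal M-channel, was at 9.96, 9.63 and 7.85 CPM in KD and at 5.29, 4.69 and 4.33 CPM in control replicates 1 to 3. The KD libraries were all above the control libraries, by 1.91-fold on average (log2 fold change 0.94, SE 0.17, FDR 0.0205). It remained below 10% whichever library was left out, with a highest FDR of 0.0968 without control replicate 3.

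*kcnq1* (ENSXETG00000019965) encodes the slow delayed rectifier of the heart, which also serves potassium recycling in epithelia. Its levels were 25.3, 25.1 and 28.2 CPM in KD and 18.1, 18.2 and 18.2 CPM in control embryos. The control libraries were nearly equal, and the KD libraries lay 1.44-fold higher (log2 fold change 0.53, SE 0.12, FDR 0.0360). The FDR reached 0.128 without control replicate 3. *kcnq5*, another M-channel subunit, stood at 0.43 (FDR 0.255, block 0.0983).

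**Figure D2:**
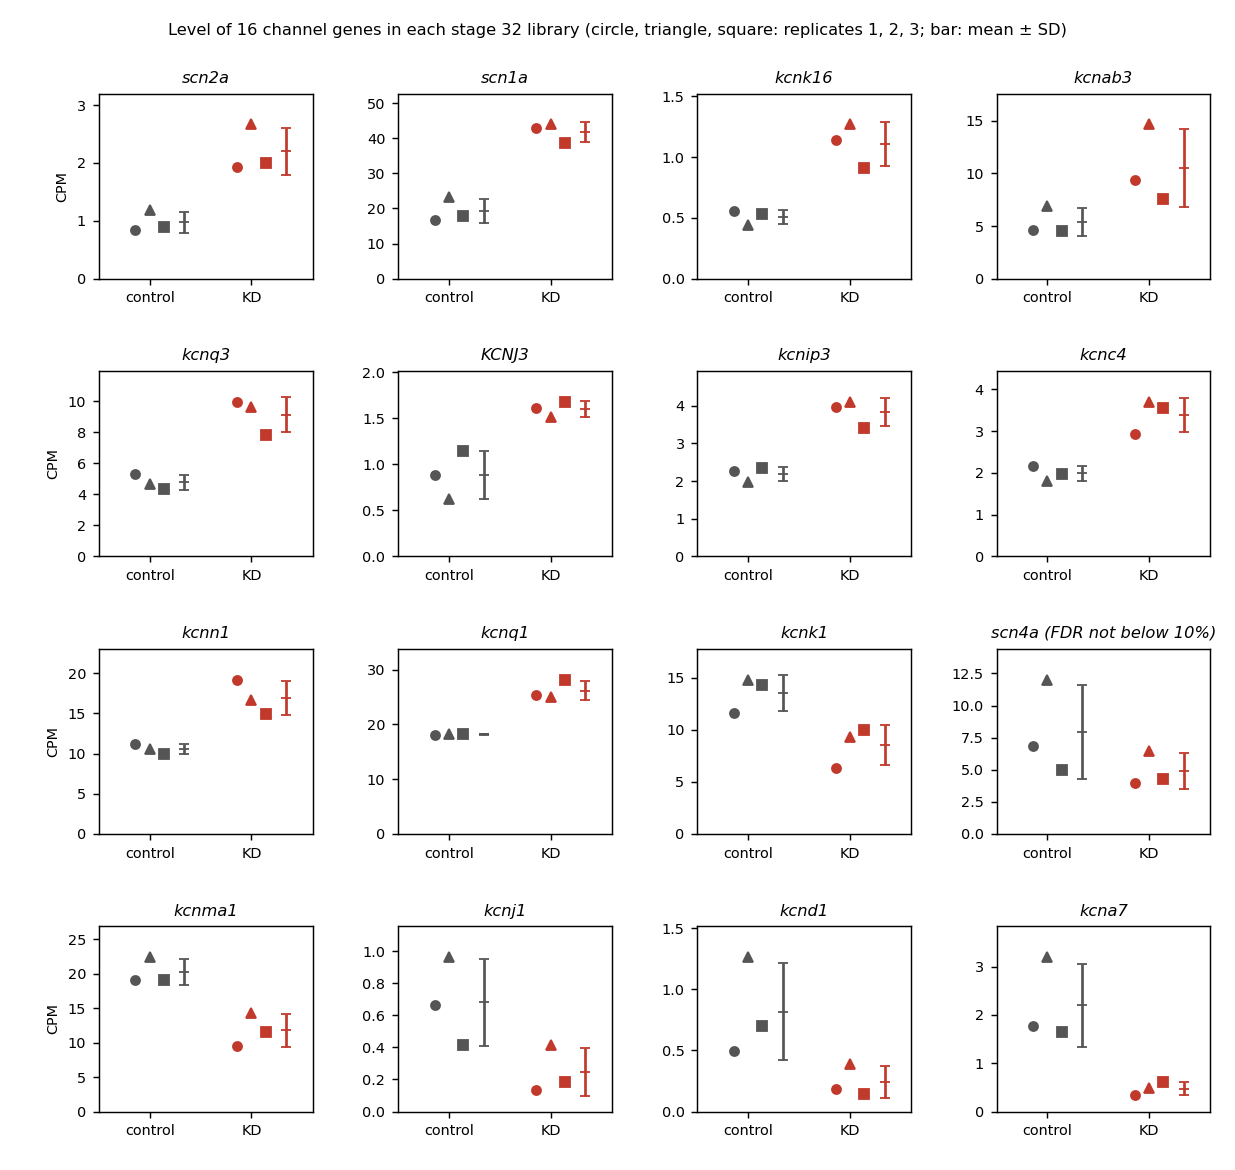
Level of the 15 called channel genes and of *scn4a* in each stage 32 library, in CPM on an axis from 0 (1 panel a gene), with the control and KD libraries side by side. Circles, triangles and squares are replicates 1, 2 and 3 and bars are the mean ± SD (n = 3); KD and control points do not overlap for any called gene, while those of *scn4a* do.

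The 5 eag-family (Kv10 to Kv12) genes held no call in edgeR's main fit, 2 genes with an unadjusted p under 0.05 (*kcnh1* and *kcnh7*) and 1 call in DESeq2 (*kcnh7*). *kcnh7*, an erg-type channel of neurons, was at 16.2 ± 1.798 CPM in KD and 21.6 ± 1.66 in control embryos, and every KD library lay below every control library. Its log2 fold change of -0.41 had an FDR of 0.116 in edgeR, or 0.0323 with the block, and of 0.0533 in DESeq2. *kcnh1*, the eag channel itself, stood at 0.88 (FDR 0.191, block 0.0339), and *kcnh8*, an elk-type channel, at 0.42 (FDR 0.639, block 0.0867). The eag-family gene *kcnh5* and the sodium channel *scn8a*, which are listed under protein identifiers and so fall outside the symbol rule, were at 2.11 ± 0.402 against 0.985 ± 0.358 CPM (log2 fold change 1.07, SE 0.32, FDR 0.0846) and at 11.9 ± 3.30 against 13.3 ± 2.50 CPM (log2 fold change -0.16, FDR 0.728).

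Among the 12 auxiliary subunits and regulators of potassium channels, 2 rose. *kcnab3* (ENSXETG00000009066), a cytoplasmic beta subunit of Kv1 channels, was at 9.37, 14.7 and 7.54 CPM in KD and 4.66, 6.90 and 4.58 CPM in control embryos. The replicate 2 libraries were the highest in both groups, and the pairs all pointed up (log2 ratios of 1.00, 1.09 and 0.72). The fold was 1.95 (log2 fold change 0.96, SE 0.29, FDR 0.0846), with an FDR of 0.237 without control replicate 3 and of 0.118 with scaling to 4 reference genes.

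*kcnip3* (ENSXETG00000004341) encodes a calcium-binding partner of Kv4 channels that is also known as a transcriptional repressor. It was at 3.98, 4.099 and 3.42 CPM in KD and 2.25, 1.98 and 2.34 CPM in control embryos. The groups were apart by more than the range within either of them (1.75-fold, log2 fold change 0.81, SE 0.20, FDR 0.0492), and the FDR reached 0.139 without KD replicate 2. Its relatives *kcnip1* and *kcnip4* had log2 fold changes of 0.53 and 1.07 and did not pass in the main fit (FDR 0.237 and 0.213), and *kcnip2* stood at 0.04. With the block *kcnip4* was called higher (FDR 0.0715), as was *kcnrg*, a regulator of Kv channels (FDR 0.0466). DESeq2 without a block also called *kcnrg* higher (FDR 0.0798).

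The channels opened by calcium or sodium split by gene. *kcnn1* (ENSXETG00000013542), a small-conductance calcium-activated channel that shapes the pause after a spike, was at 19.2, 16.7 and 14.9 CPM in KD and 11.2, 10.6 and 9.97 CPM in control embryos. All KD libraries were above all control libraries (1.601-fold, log2 fold change 0.68, SE 0.15, FDR 0.0335). Only without control replicate 3 did the FDR pass 10%, at 0.132.

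*kcnma1* (ENSXETG00000018041), the large-conductance channel opened by calcium and voltage together, went the other way. It was at 9.56, 14.3 and 11.6 CPM in KD and 19.1, 22.4 and 19.1 CPM in control embryos, with no overlap. It was 1.71-fold lower (log2 fold change -0.78, SE 0.18, FDR 0.0386), and the FDR reached 0.113 without control replicate 3.

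*kcnn2*, another small-conductance channel, was at 8.08 ± 2.63 CPM in KD and 13.3 ± 4.67 in control embryos (log2 fold change -0.73, FDR 0.206, block 0.00944), whereas *kcnn3* stood at 0.56 (FDR 0.189, block 0.0829). With the block, then, *kcnn1* and *kcnn3* were called higher and *kcnn2* lower within the same subfamily. Its epithelial and blood cell member *kcnn4* stood at -0.10 (FDR 0.927). The sodium-activated channel *kcnt1* was at 0.59 (FDR 0.195, block 0.0486).

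Of the 10 K2P genes tested, *kcnk16* rose and *kcnk1* fell. *kcnk16* (ENSXETG00000007833), a background channel known from the mammalian pancreas, was at 1.14, 1.27 and 0.911 CPM in KD and 0.555, 0.445 and 0.533 CPM in control embryos. The groups did not overlap, and the fold was 2.16 (log2 fold change 1.11, SE 0.28, FDR 0.0543, and 0.147 without control replicate 3).

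*kcnk1* (ENSXETG00000022808), a weakly conducting K2P channel of kidney tubules and brain in mammals, was at 6.35, 9.33 and 9.94 CPM in KD and 11.6, 14.8 and 14.3 CPM in control embryos. Replicate 1 was the lowest library of each group, and no KD library reached the control range. The fall of 1.59-fold (log2 fold change -0.67, SE 0.21) had an FDR of 0.0901. The call was lost whichever library was left out, with FDRs of 0.112 to 0.234, and with scaling by library size only (0.159). The epithelial K2P genes *kcnk5* and *kcnk6* did not pass in the main fit, and with the block *kcnk5* was higher (0.38, FDR 0.0259) and *kcnk6* lower (-0.34, FDR 0.0253). *kcnk18* was higher with the block as well (0.56, FDR 0.0663).

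Among the 15 Kir genes, *KCNJ3* rose and *kcnj1* fell. *kcnj1* (ENSXETG00000022779) encodes the potassium-secreting channel of the kidney tubule. It was at 0.137, 0.415 and 0.182 CPM in KD and 0.662, 0.961 and 0.416 CPM in control embryos, on 14 to 33 and 32 to 108 reads. The groups barely separated, with KD replicate 2 at 0.415 and control replicate 3 at 0.416 CPM. The difference was 2.98-fold (log2 fold change -1.58, SE 0.49, FDR 0.0956). The FDR was 0.235 without KD replicate 3 and 0.126 with scaling by library size only.

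The table holds pairs of gene models under the symbols *kcnj3* and *kcnj9*, which both encode subunits of G-protein-gated channels of neurons. *KCNJ3* (ENSXETG00000030612) was at 1.61, 1.51 and 1.68 CPM in KD and 0.885, 0.623 and 1.14 CPM in control embryos (1.84-fold, log2 fold change 0.88, SE 0.28, FDR 0.0998). This was the call nearest to the threshold, and it was lost in each fit without 1 library (FDR 0.134 to 0.219). *kcnj3* (ENSXETG00000021717) stood at 3.30 ± 0.353 and 3.23 ± 1.02 CPM, a log2 fold change of 0.01.

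The *kcnj9* models took opposite signs. *kcnj9* (ENSXETG00000017827) had a log2 fold change of 0.72 (FDR 0.391, block 0.0227) and *KCNJ9* (ENSXETG00000032519) one of -0.87 (FDR 0.249, block 0.0383). Whether the members of each pair are separate genes or parts of 1 gene was not tested, and their counts are uncertain where they share sequence.

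In each of the 15 called genes the groups did not overlap, so all 3 pairs of same-numbered libraries necessarily pointed the same way. Of the 6 fits that each left out 1 library, 6 kept the calls of *scn1a*, *kcnq3* and *kcna7*, 5 that of *kcnn1* and 4 that of *kcnma1*. For *scn2a* and *kcnq1* it was 3, for *kcnab3* and *kcnd1* 2, for *kcnk16*, *kcnc4*, *kcnip3* and *kcnj1* 1, and for *KCNJ3* and *kcnk1* 0.

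**Figure D3:**
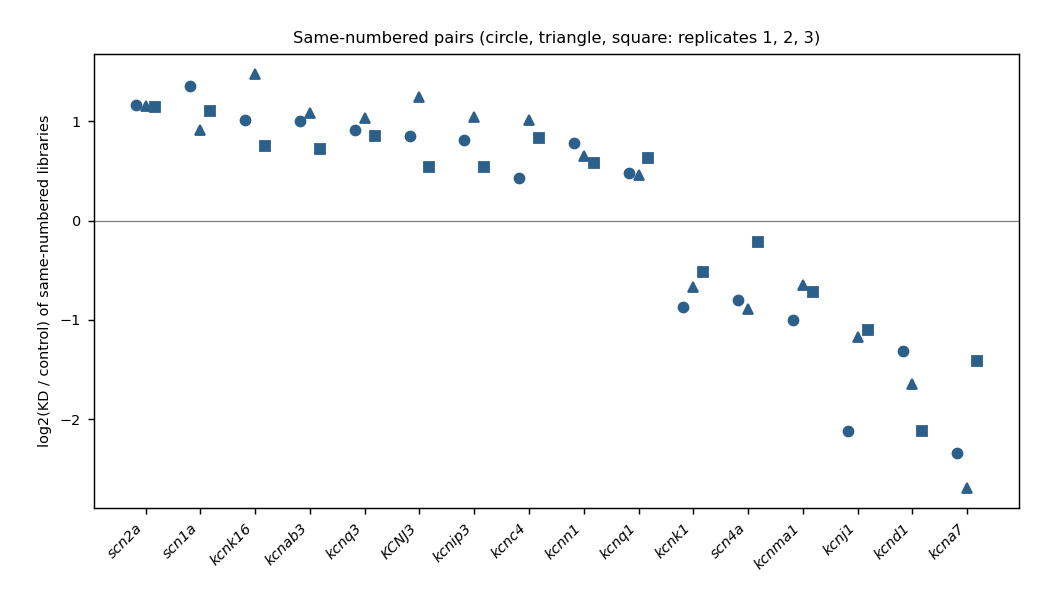
Log2 ratio of each KD library to the control library of the same replicate number (vertical axis, with 2 reads added to each) for the 16 channel genes described by library, ordered by their log2 fold change. Circles, triangles and squares are replicates 1, 2 and 3; the 3 points of each gene lie on the same side of 0, most tightly for *scn2a* (1.14 to 1.16).

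The channel genes were then set in classes by the tissue in which they are best known to act. These classes come from general knowledge, largely of mammals, and a gene may act in more than its class. The neuronal class had 50 tested genes, of which 7 rose (*scn1a*, *scn2a*, *kcnq3*, *kcnn1*, *kcnab3*, *kcnip3* and *KCNJ3*) and 1 fell (*kcnd1*). Its median log2 fold change was 0.28, against 0.01 for all genes, and 33 of the 50 had a log2 fold change above 0, as did 51% of all genes. The share called in either direction, 16%, was near the 14.4% of all genes. By direction, 7 of 50 were called higher and 1 lower, where 7.44% of all genes were higher and 6.98% lower. With the block 17 rose and 7 fell, where 19.2% of all genes rose and 19% fell. Without control replicate 3, 2 neuronal genes were called.

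Markers of neural cells were measured beside this class. Of 14 neuron markers, 1 passed (*tubb2b*, 1.47-fold higher, FDR 0.0623), where 7.44% of all genes were higher. The log2 fold change was above 0 for 13 of them, as for 51% of all genes. In these 13 it ran from 0.02 (*elavl3*) to 0.83 (*stmn2*). The summed levels of the 14 markers were 1256 to 1583 CPM in KD and 932 to 1247 in control embryos. Most of each sum was *tubb2b* itself (901 ± 72.8 CPM in KD and 612 ± 91.3 in control embryos), so the sums say little about the other markers. With the block 7 of the 14 were higher, where 19.2% of all genes were. Of 11 neural progenitor markers 7 were higher, where 7.44% of all genes were, among them *zic2* at 2.13-fold. Their sums were 670 to 898 CPM in KD against 397 to 536 in control embryos. Their part in the levels of the neuronal channel genes was not tested.

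The skeletal muscle class of 6 genes held 1 gene that fell (*kcna7*) and 1 that rose (*kcnc4*). Of all genes 6.98% fell and 7.44% rose, but 6 genes are too few for a share to mean much. The median log2 fold change of the class was 0.10. With the block *scn4a* was called lower beside *kcna7*, where 19% of all genes fell. The Kir genes of this class, *kcnj2*, *kcnj11* and *kcnj12*, had log2 fold changes of -0.08, 0.28 and 0.47, with FDRs of 0.441 to 0.839. The class therefore did not share a direction.

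Of 17 skeletal muscle markers 15 fell and none rose, where 6.98% of all genes fell. Their median log2 fold change was -1.27, and they summed to 9828 to 12629 CPM in KD against 22817 to 23617 in control embryos. *mylpf*, a myosin light chain, was 3.21-fold lower and *tnnc1*, a troponin, 3.36-fold lower. The 15 that fell ran from 1.76-fold (*actn3*) to 4.36-fold lower (*cacna1s*). *acta1* at 1.63-fold lower (FDR 0.131) and *pvalb* at 1.22-fold higher (FDR 0.690) did not pass. Beside these markers stood *kcna7* at 4.69-fold lower. *scn4a* was 1.64-fold lower, which passed with the block but not in the main fit. *kcnj2*, *kcnj11* and *kcnj12* did not pass, and *kcnc4* was higher. The part of the muscle markers in the levels of these genes was not tested.

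The heart class of 6 genes held 1 call, the rise of *kcnq1*, where 7.44% of all genes rose. Its median log2 fold change was 0.03. With the block *kcna5* was also higher (0.57, FDR 0.0528). None of 7 heart markers passed in the main fit and 6 were higher with the block, where 19.2% of all genes were. Their sums were 172 to 212 CPM in KD and 95.1 to 191 in control embryos. *kcne1*, the partner of *kcnq1* in the heart, had only 2, 1 and 1 reads in KD and 1, 8 and 2 in control embryos. A change of it was not detectable at this depth.

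The epithelial class of 10 genes held no rise and 2 falls, *kcnj1* and *kcnk1*, where 7.44% of all genes rose and 6.98% fell. It had 5 genes on either side of 0, where 51% of all genes lay above 0. The median log2 fold change of the class was -0.03. It turned to 0.05 with scaling by library size only and to 0.04 with scaling to 4 reference genes. Under both of these scalings neither fall passed and *kcnk5* was called higher instead. Those with the highest read counts, *kcnk6*, *kcnj13*, *kcnk5* and *kcnj16*, had log2 fold changes of -0.36, 0.30, 0.37 and 0.18, none of which passed in the main fit. With the block *kcnj13* was also higher (FDR 0.0625). Of 6 kidney markers *slc12a1*, a salt transporter of the distal tubule, was 2.56-fold lower (FDR 0.0391) and *pax2*, which is also a neural gene, was 1.72-fold higher (FDR 0.0287). Their sums were 80.4 to 106 CPM in KD and 81.8 to 99.3 in control embryos, and none of 6 ionocyte markers passed. The part of these cells in the levels of *kcnj1* and *kcnk1* was not tested.

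The remaining 16 genes were given no class, and of these *kcnk16* rose and *kcnma1* fell (12.5%, where 14.4% of all genes were called). The median log2 fold change of the 16 was 0.43, against 0.01 for all genes.

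Some channel genes are neighbours in the genome. By the order of genes in the RefSeq annotation of a later assembly, 7 pairs of members follow each other: *kcnj16* and *kcnj2*, *kcnj15* and *kcnj6*, *kcna3* and *kcna2*, *kcna2* and *kcna10*, *kcna5* and *kcna1*, *kcna1* and *kcna6*, and *scn2b* and *scn4b*. None of these genes was called in the main fit. Along *kcna3*, *kcna2* and *kcna10* the log2 fold changes were 0.24, 0.79 and 0.88. Along *kcna5*, *kcna1* and *kcna6* they were 0.52, 0.74 and -0.20. The other pairs differed in sign. These were *kcnj16* and *kcnj2* (0.18 and -0.08), *kcnj15* and *kcnj6* (0.03 and -0.44), and *scn2b* and *scn4b* (0.91 and -0.02). The value of *scn2b* rested on 21, 20 and 8 reads in KD and 2, 17 and 8 in control embryos. That of *kcna10* (SE 0.62, FDR 0.428) rested on 11, 30 and 16 reads in KD and 8, 11 and 13 in control embryos. The same-numbered pairs of *kcna10* did not share a direction.

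Channels work with other proteins, and 3 lists of these were examined. Of 11 genes for the sodium pump and the epithelial sodium channel, 1 passed, where 14.4% of all genes were called. This gene, *atp1b2*, a beta subunit of the pump, was at 77.6 ± 12.3 CPM in KD and 46.8 ± 10.7 in control embryos (1.66-fold higher, FDR 0.0647). With the block 6 of the 11 were higher, where 19.2% of all genes were.

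Of 20 genes for channel partners and for proteins that gather channels in the membrane, 3 were higher and none lower, where 7.44% of all genes were higher. *nrcam*, an adhesion molecule of nodes and initial segments, was 1.94-fold higher (5.85 ± 0.806 against 3.02 ± 0.118 CPM, FDR 0.0231). *dpp6*, a partner of Kv4 channels, was 1.94-fold higher (FDR 0.0720), and *ank3*, the ankyrin that anchors sodium and Kv7 channels, 1.26-fold higher (FDR 0.0841). With the block 7 of the 20 were higher and 1 was lower, where 19.2% of all genes rose and 19% fell. The lower gene was another ankyrin, *ank1* (log2 fold change -0.70, FDR 0.172, block 0.00331).

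Of 26 genes for calcium, HCN, leak and chloride channels, 2 were higher and 2 lower, a share near the 14.4% of all genes called. Both higher entries were gene models of *unc80*, a subunit of the sodium leak channel (2.06-fold, FDR 0.0477, and 1.87-fold, FDR 0.0824). Both lower ones encode parts of the calcium channel of skeletal muscle. *cacna1s*, its voltage sensor, was at 2.71, 3.70 and 3.67 CPM in KD and 14.7, 14.7 and 14.5 CPM in control embryos (4.36-fold lower, FDR 0.00198), and *cacng1*, its gamma subunit, was 1.79-fold lower (FDR 0.0229). *cacna1s* also stands in the list of muscle markers. *clcn1*, the chloride channel of muscle, had a log2 fold change of -0.90 with overlapping groups (FDR 0.397, block 0.0446). With the block 7 of the 26 were higher and 5 lower, where 19.2% of all genes rose and 19% fell.

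The stage 20 library was compared with the same 3 control libraries of stage 32 by size alone, since 1 library allows no test. The comparison also differs in injection, as the stage 20 embryos received no morpholino. A gene was counted as different where it lay at least 2-fold from the control mean and outside all control libraries. By this rule 34 of 88 channel genes were lower at stage 20 (38.6%; 20.8% of all genes) and 12 were higher (13.6%; 13.1% of all genes). The median ratio of stage 20 to control was 0.60 for channel genes and 0.98 for all genes.

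Among channel genes that reached 20 reads at stage 20 or in the control mean, taking 3 reads as the floor where stage 20 had none, the lowest stage 20 levels relative to control were those of *kcnh8*, *kcna7*, *kcna6*, *kcnd1* and *kcnip2*. *kcnh8* had no read at stage 20, and the control mean was 74.1-fold higher than this floor. The 95% Poisson interval of its ratio to the control mean was 0 to 0.0166, for counting error only. *kcna7* had 3 reads, 0.0128 of the control mean (95% Poisson interval of the reads, 0.00264 to 0.0374, for counting error only). *kcna6* was at 0.454 CPM, 17.97-fold lower, *kcnd1* 14.6-fold lower and *kcnip2*, a Kv4 partner of the heart, 11.1-fold lower. No read at stage 20 was found for 6 of the 89 genes, *kcnh8*, *kcng4*, *kcna10*, *kcnd3*, *kcns2* and *kcnk9*.

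Among the channel genes with the highest stage 20 ratios were *kcne1*, *kcnj1*, *kcnk6* and *kcnmb4*. *kcne1* had a ratio of 7.16 on 27 reads at stage 20 (95% Poisson interval of these reads alone, 4.72 to 10.4). Its control libraries held only 1, 8 and 2 reads, and their spread does not enter this interval. *kcnk6*, an epithelial K2P channel, was at 234 CPM, a ratio of 3.25. *kcnj1* stood at 4.09 times and *kcnmb4*, a beta subunit of the large-conductance channel, at 3.05 times the control mean.

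Of all genes, 20.8% were lower at stage 20 and 13.1% higher. By class, 23 of 50 neuronal genes (46%) were lower and 3 higher (*kcnmb4*, *kcnj4* and *kcng3*). Of the skeletal muscle class 3 of 6 were lower (*kcna7*, *scn4a* and *kcnc4*) and none higher. The heart class split evenly into 3 and 3, with *kcnq1* and *kcne1* among the higher genes and *kcna5*, *kcnip2* and *kcnd3* lower. The epithelial class had 4 higher (*kcnj1*, *kcnk6*, *kcnj16* and *kcnj15*) and 3 lower (*kcnk1*, *kcnj13* and *kcnn4*). Summed levels of neuron markers were 0.67 and of neural progenitor markers 1.98 times the control mean in this library, those of skeletal muscle 0.66, of heart 0.37 and of kidney 3.37. Such sums follow the most abundant markers, and single genes of a list could differ in direction. In the muscle list *ckm* was at 0.0694 and *myod1* at 4.59 times the control mean. In the heart list *myh6* was at 0.148 and *nkx2-5* at 4.35 times.

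**Figure D4:**
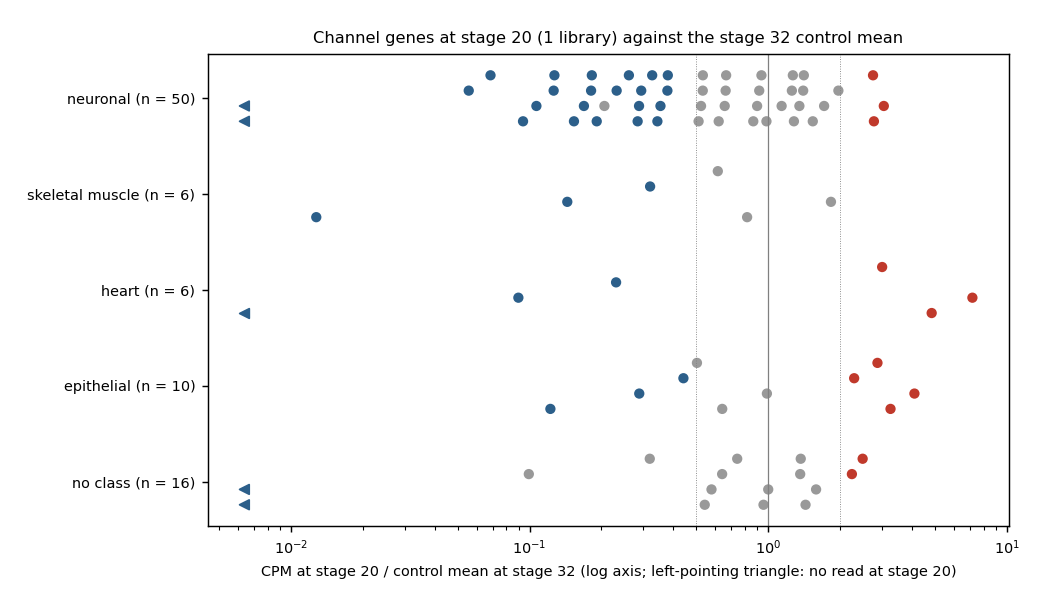
Ratio of the stage 20 level to the control mean at stage 32 (horizontal log axis, in CPM per CPM) for the 88 tested channel genes in rows by class. Red and blue points were counted as higher (12) and lower (34), grey points as neither, left-pointing triangles had no read at stage 20, and dotted lines mark ratios of 0.5 and 2.

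The KD and stage 20 comparisons share the control libraries, so that values are only set side by side. *scn1a* and *kcnq3*, both higher in KD, were at 0.94 and 0.87 of the control mean at stage 20, *scn2a* at 0.29 and *kcnc4* at 0.32. *kcnq1* was higher in both comparisons, with a stage 20 ratio of 3.00. Of the genes lower in KD, *kcna7* and *kcnd1* were at 0.0128 and 0.0686 at stage 20, *kcnk1* at 0.44, *kcnma1* at 1.00 and *kcnj1* at 4.09. *scn4a* was at 0.14.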

How the data were processed

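Poly(A) RNA of stage 32 and stage 20 embryos was sequenced from both ends along 55 bases. Per the paper's methods and the submitters' processing notes, the authors mapped the reads with Bowtie 0.12.7 to Ensembl's JGI4.1 transcripts. Pairs that matched more than 1 gene were dropped, and a pair matching several transcripts of 1 gene was counted a single time. Paralogs with long identical stretches, such as sodium channel alpha genes, may therefore be undercounted. The deposited values are raw read counts per transcript, which the authors did not normalize. The header has empty fields before the 7 library names, so the names were assigned to the columns in order. Counts were summed per gene (19884 genes from 24160 transcripts).

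KD and control libraries were compared with edgeR 4.0.16 in R 4.3.3: genes with at least 10 reads over the 6 stage 32 libraries, TMM scaling, the quasi-likelihood test, and Benjamini-Hochberg adjustment over 16944 genes to a false discovery rate (FDR) of 10%. Standard errors are the log2 fold change divided by the root of the F statistic. Levels are reads scaled to 1000000 per library (CPM) after TMM, over 6 libraries for KD and control and over 7 where stage 20 enters. The test was run on simulated counts for 16854 genes. It called 62 of 100 genes changed 2-fold and 98 of 100 changed 4-fold, with 12 false calls. Only genes with a mean above 20 reads were changed. The spread followed the fitted trend over all genes, and same-numbered libraries shared no deviation. The real libraries differ in this, so the figures need not hold for them.

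Libraries were paired by the replicate numbers of their labels. The labels do not say that KD and control libraries of one number belong together. Deviations from the group means, taken over all genes, gave r = 0.573, 0.586 and 0.316 between KD and control libraries of one number and -0.510 to 0.00961 between those of unlike numbers. The study's methods state no such term, so the block was an alternative. The others are given with their effects below.

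Described with every library's value were *scn4a* and each channel gene with an FDR below 10%. For stage 20 these were the 5 genes with the largest ratio each way among those with at least 20 reads in the higher group. Members, classes, families and gene lists were chosen with earlier results of these data known. Other genes named for a value in the text were picked after their values were seen. Gene positions are not used here, and gene order comes from the RefSeq annotation of a later assembly (UCB_Xtro_10.0). Values of a few single genes are not reported here. The ChIP-seq and RT-qPCR data were not used here.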

Additional observations from a re-analysis of the deposited data

How the results depend on the processing

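With the replicate block, which pairs same-numbered libraries, 26 channel genes were higher and 13 lower in KD embryos, of 6468 genes called in all, and these included all 15 called without it. The counts of lower channel genes fell to 2 with scaling by library size only and to 2 with scaling to 4 reference genes, where the median log2 fold change of all genes moved from 0.01 to 0.08 and 0.07. At an FDR of 5%, 6 channel genes were higher and 2 lower, of 1269 genes in all. Without both replicate 2 libraries (a setting added once the data had been seen) there were 4 higher channel genes, 1396 genes in all and a median log2 fold change of -0.27 for the epithelial class. Leaving out each library in turn gave 2 to 10 higher and 1 to 4 lower channel genes, and 868 to 1961 genes in all. The lowest counts of higher genes and of all genes came without control replicate 3. Over the same fits the median log2 fold change ran from 0.094 to 0.36 for all channel genes, from 0.15 to 0.39 for the neuronal class, from -0.01 to 0.17 for the skeletal muscle class, from -0.10 to 0.33 for the heart class and from -0.17 to 0.10 for the epithelial class. Leaving out a control library gave 11 to 14 channel genes higher and 34 to 42 lower at stage 20. With all 3 control libraries, 13.1% of all genes were higher and 20.8% lower. DESeq2 1.42.0 called 19 channel genes, of 3389 genes called in all, against 15 of 2443 in the main fit. With DESeq2's size factors 14 of 2387 called genes were channel genes, and with edgeR's filterByExpr 15 of 2492. The transcript with the most reads gave 15 channel genes, no filter 13, and edgeR's legacy dispersions, added after seeing the data, 13. With lower-case symbols only, also added afterwards, 9 were higher and 5 lower. The cause of these shifts was not tested. None of the 16 genes described by library changed direction in any of these settings. At stage 20, with 1 library, only counting error could be estimated, and variation between embryos and libraries was not measured.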
